A study of Homo sapiens with 16 samples.

Results

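The retinoid receptors and the proteins that work with them were followed as 9 genes, chosen by name and read through the probes annotated to them: the retinoic acid receptors RARA, RARB and RARG, the retinoid X receptors RXRA and RXRB, the corepressors NRIP1 and NCOR1, and the coactivators NCOA1 and NCOA3. The array annotation names 20046 genes by a single symbol, and 7 of the 9 are among them, with 13 probes in all. Of these 7, 6 had a probe past the filter on dim probes, which asks that 4 or more of the 16 arrays reach a log2 intensity of 6, and these were tested. NCOR1 and NCOA3 had no probe under their names and were not analysed here.

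The cells were ME180, a human line of epidermoid carcinoma of the cervix taken from a metastasis in the omentum, so the results describe 1 line. There were 4 arrays for each of 4 groups: cells in DMSO, the vehicle, for which the labels give no treatment time, and cells given ATRA, all-trans retinoic acid, at 10 µM and taken after 1, 3 or 6 h. The DMSO arrays therefore match no single time. Both treated and vehicle cells grew in medium with fetal bovine serum. The labels do not say that the replicates were separate cultures, so each p-value measures the spread between arrays, which may be technical.

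Cells make ATRA from vitamin A, and it acts as the ligand of the retinoic acid receptors (RARs). A RAR pairs with a retinoid X receptor (RXR) on a direct repeat of a short half-site in DNA. Without ligand the pair holds corepressors such as NCOR1, which bring histone deacetylases, and ligand binding exchanges them for coactivators of the NCOA family. NRIP1 (RIP140) is unusual among corepressors because it is recruited by receptors that carry their ligand, and its own gene is known as a retinoic acid target. RARB is another known target, through a repeat in the promoter of one of its transcripts, and squamous carcinoma lines often express little of it.

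The window below shows that repeat, and the window of NRIP1 is set beside it because NRIP1 had the widest differences between groups. Both come from RefSeq on GRCh38.p14, from 250 bases before to 50 after a transcript start. The RARB window is chr3:25428013-25428312 on the plus strand, and the NRIP1 window is chr21:15065887-15066186 on the minus strand. Capitals mark the direct repeat in RARB and the single half-site in NRIP1. Another half-site, GGGTCA, lies before the repeat in the RARB window and is left in lower case.
RARB: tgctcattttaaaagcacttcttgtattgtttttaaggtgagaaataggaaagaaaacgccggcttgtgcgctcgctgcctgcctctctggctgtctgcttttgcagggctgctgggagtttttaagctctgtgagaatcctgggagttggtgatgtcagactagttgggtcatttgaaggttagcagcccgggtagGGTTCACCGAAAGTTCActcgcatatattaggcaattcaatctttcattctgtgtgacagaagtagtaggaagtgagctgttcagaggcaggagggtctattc
NRIP1: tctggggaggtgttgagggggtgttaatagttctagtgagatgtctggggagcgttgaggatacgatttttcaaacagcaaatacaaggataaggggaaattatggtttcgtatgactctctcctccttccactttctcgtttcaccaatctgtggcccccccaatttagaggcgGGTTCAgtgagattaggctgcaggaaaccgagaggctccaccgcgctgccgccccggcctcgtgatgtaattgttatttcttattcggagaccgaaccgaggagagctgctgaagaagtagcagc

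The half-sites searched were the consensus AGGTCA, its variant with the letters AGTTCA, another with the letters GGGTCA and a further one with the letters GGTTCA, on both strands, alone or as direct repeats with a spacer of 1, 2 or 5 bases, so a repeat also counts as a half-site. The RARB window held a repeat with a spacer of 5, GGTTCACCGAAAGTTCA, which begins 53 bases before the start. It was the 1 window with a repeat of any spacing searched among 21 windows of the 9 genes. Over 35116 windows of all genes, a spacing of 5 was found in 0.0883%. A spacing of 1 was found in 0.131% of them and a spacing of 2 in 0.0399%. In the NRIP1 window the half-site GGTTCA begins 75 bases before the start, and none of the 3 NRIP1 windows held a repeat. At least 1 half-site was present in 6 of the 21 windows of the 9 genes and in 38.6% of all windows. A match describes letters within these 300 bases and does not show binding.

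The arrays numbered replicate 1, 1 in each group, stood apart from replicates 2 to 4. Their deposited values sat 1 row too low over 77.6% of the table and were moved back. After the move their levels still differed, and correlations over probes between them and the other arrays ran from 0.963 to 0.974, against 0.974 to 0.994 within each array set. Results are therefore given over all arrays, and for NRIP1 and RXRA also with array set as a block and within replicates 2 to 4. For the other members these are given in part. Of 8 markers of squamous epithelium 5 had a named probe (KRT5, KRT14, DSG3, SFN and CDH1), and each was at 6 or more in the 16 arrays. Of 6 markers of simple or glandular epithelium, KRT8, KRT18, KRT19, MUC1 and EPCAM were also at 6 or more in the 16 arrays. KRT7, the remaining marker of that list, reached 6 in some arrays without passing the filter. Of 4 leukocyte markers with a named probe, PTPRC and CD3E stayed below 6 throughout, while the other 2 reached 6 in some arrays without passing the filter. Of 6 fibroblast markers 4 stayed below 6 throughout and the other 2 passed the filter. Of 4 endothelial markers PECAM1 and KDR stayed below 6 throughout. The other 2 endothelial markers, CDH5 and VWF, passed the filter and had a median log2 fold change of 1.54 at 3 h over DMSO. Over all arrays neither was called there (lowest limma adjusted p = 0.172), and 1 had an unadjusted p under 0.05. Without the 6 h arrays and with array set as a block, limma called CDH5 higher at 3 h (adjusted p = 0.0324, 4.45% of probes called). The part of CDH5 and VWF in the results was not tested.

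None of the 6 tested members passed an adjusted p of 0.05 in limma over all 16 arrays, in any of 5 comparisons or in the F-test over the 4 groups. The share of all 15271 tested probes that passed was 0.544% at 1 h over DMSO, 0.596% at 3 h over DMSO, 0% at 6 h over DMSO, 0.19% at 3 h over 1 h, 0% at 6 h over 3 h and 0.688% in the F-test. At an unadjusted p under 0.05 there was 1 member at 3 h over DMSO, 1 at 6 h over 3 h and 1 in the F-test, NRIP1 in each case, and 0 in the other 3 comparisons. Over all tested probes that threshold was passed by 1150 (7.53%) at 3 h over DMSO, 520 (3.41%) at 6 h over 3 h, 925 (6.06%) in the F-test and 660 (4.32%) at 6 h over DMSO. It was passed by 564 (3.69%) at 1 h over DMSO and by 730 (4.78%) at 3 h over 1 h. The comparisons at 1, 3 and 6 h share the same 4 DMSO arrays.

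**Figure D1:**
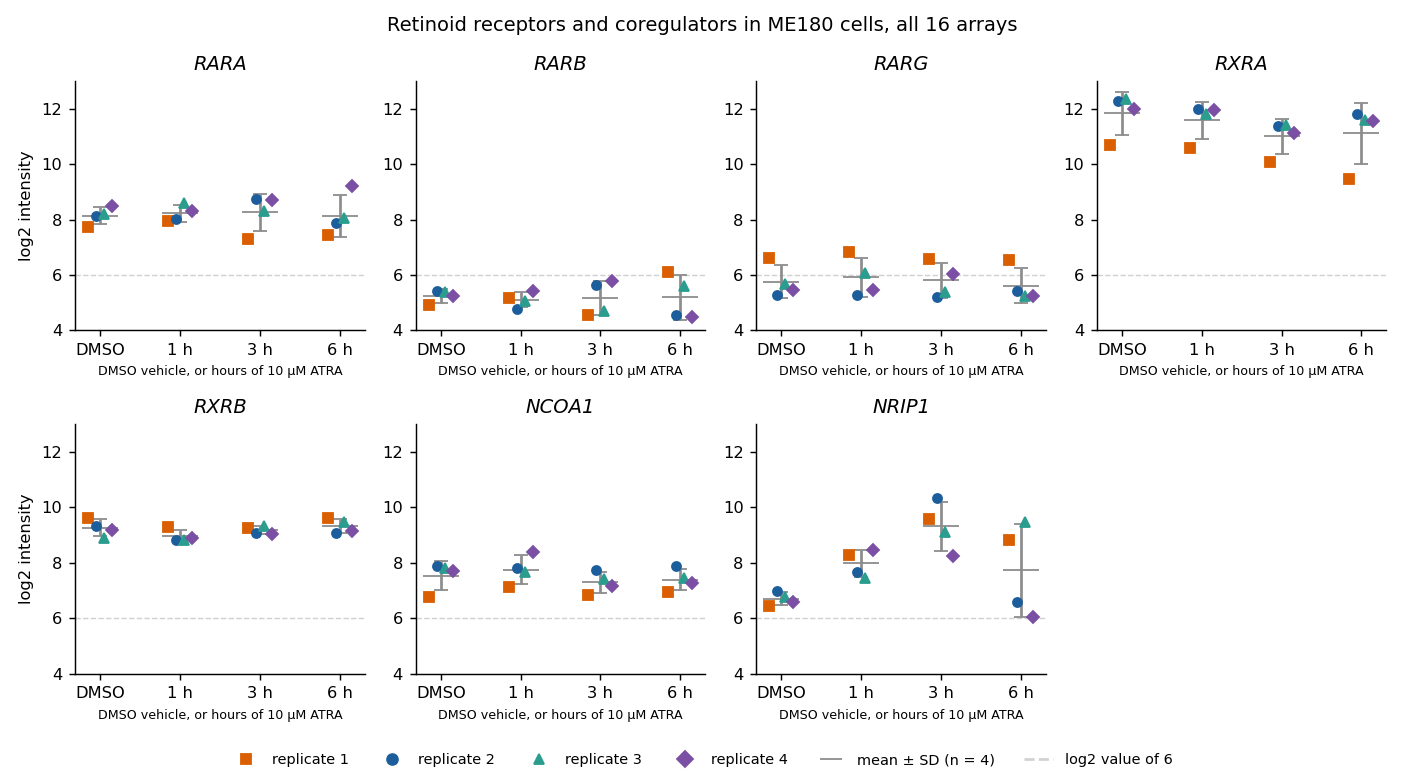
Log2 intensity (vertical axis) of the 7 genes with a named probe in DMSO and after 1, 3 and 6 h of ATRA (horizontal axis), with 1 point per array, a marker for each replicate number, grey bars for the mean ± SD (n = 4) and a dashed line at 6. NRIP1 is above its DMSO arrays in the 4 arrays at 1 h and the 4 at 3 h, replicate 1 is lowest in each group of RXRA, and RARB stays near or under the dashed line.

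NRIP1 was the member with the widest difference. Its probe read 6.43, 6.98, 6.78 and 6.60 in DMSO replicates 1 to 4, and 8.30, 7.67, 7.47 and 8.48 after 1 h. It read 9.57, 10.34, 9.12 and 8.25 after 3 h, and 8.81, 6.57, 9.48 and 6.03 after 6 h. The arrays at 1 h and at 3 h lay above the highest DMSO array in each case, the arrays at 3 h and 1 h overlapped, and the arrays at 6 h were split. Replicates 1 and 3 at 6 h stood well above DMSO, replicate 2 lay within the DMSO range and replicate 4 below it.

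In order, the group means of NRIP1 were 6.70 ± 0.24 in DMSO, 7.72 ± 1.68 at 6 h, 7.98 ± 0.49 at 1 h and 9.32 ± 0.87 at 3 h (SD, n = 4 each). Neighbours in this order overlapped in their arrays throughout. At 3 h NRIP1 was 6.14-fold above DMSO, a log2 fold change of 2.62 (SE 0.63, 95% CI 1.28 to 3.96, limma adjusted p = 0.0791). The direction held in 4 of 4 arrays, but over all 16 arrays the difference did not pass the adjusted threshold. Of the 15271 tested probes, 20 had a higher log2 fold change at 3 h over DMSO, which is 0.131%.

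The call at 3 h turned on how arrays were treated. With array set as a block NRIP1 rose (adjusted p = 0.0317), where 2.97% of probes were called. In a fit of the 3 h and DMSO groups alone it also passed (adjusted p = 0.0236, 0.72% of probes called), and without the 6 h arrays, an alternative chosen after seeing the data, it passed at an adjusted p of 0.00699 (1.03% called), and at 0.00248 when array set was also a block (4.45% called). Leaving out 6 h replicate 3 or 6 h replicate 4 gave adjusted p-values of 0.0386 and 0.0433, while the adjusted p without any 1 of the other 14 arrays was between 0.0628 and 0.297. Without the 4 replicate 1 arrays the log2 fold change was 2.45 and the adjusted p 0.188. The difference within replicate 1 alone was 3.14.

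At 1 h NRIP1 was 2.43-fold above DMSO, a log2 fold change of 1.28 (SE 0.63, 95% CI -0.06 to 2.62, limma adjusted p = 0.9999). Groups that do not overlap in this direction were found at 1.66% of all tested probes at 1 h and at 2.95% at 3 h, and NRIP1 was the 1 tested member of 6 at both times. At 6 h the log2 fold change over DMSO was 1.03 (95% CI -0.32 to 2.37), and it was 1.59 without 6 h replicate 4 and 0.44 without 6 h replicate 3. Set against 1 h, the 3 h arrays had a log2 fold change of 1.34 (95% CI -0.0025 to 2.68). Set against 3 h, the 6 h arrays had one of -1.59 (95% CI -2.93 to -0.25, adjusted p = 1.00).

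The split at 6 h appeared in the same arrays at genes that ATRA is known to induce. CYP26A1, the retinoic acid hydroxylase that clears ATRA, read 12.95, 4.53, 13.13 and 5.45 at 6 h in replicates 1 to 4, against 7.26, 8.58, 8.83 and 7.79 in DMSO. CYP26B1, another hydroxylase of the family, read 10.68, 6.70, 11.51 and 7.12 at 6 h, against 6.22, 6.96, 6.88 and 7.80 in DMSO. DHRS3, which reduces retinaldehyde, read 12.33, 9.24, 12.69 and 10.27 at 6 h, against 11.48, 11.39, 11.19 and 11.14 in DMSO. Replicates 2 and 4 were thus low, and replicates 1 and 3 high, at NRIP1 and at these 3 genes alike. Whether 6 h replicates 2 and 4 match their labels is in doubt for this reason and was not tested, and each 6 h mean and comparison rests on the labels as given. At CYP26A1 and DHRS3 these arrays lay below the lowest DMSO array, not only within the DMSO range. At 1 h, replicate 2 was the lowest array at CYP26A1 (7.51), CYP26B1 (9.07) and DHRS3 (10.73), though not at NRIP1.

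**Figure D2:**
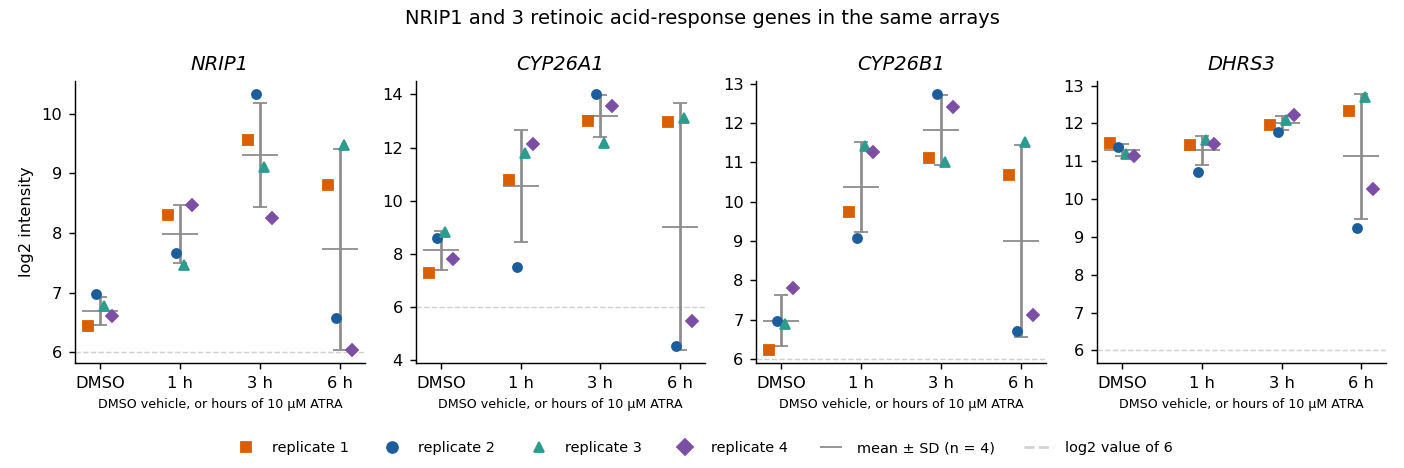
Log2 intensity (vertical axes, each with its own range) of NRIP1, CYP26A1, CYP26B1 and DHRS3 in DMSO and after 1, 3 and 6 h of ATRA, 1 point per array with a marker for each replicate number and grey bars for the mean ± SD (n = 4). At 6 h replicates 1 and 3 are high and replicates 2 and 4 low in each panel, with NRIP1 at 8.81 and 9.48 against 6.57 and 6.03.

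At 3 h CYP26B1 rose with a log2 fold change of 4.85 over DMSO (SE 0.93, limma adjusted p = 0.0254), and CYP26A1 was 5.08 higher (SE 1.65, adjusted p = 0.265). Among 11 further genes of retinoid response and handling, 8 had a named probe and 5 were tested. CYP26B1 was the 1 of them called at 3 h over all arrays, where 0.596% of all tested probes were called. Without the replicate 1 arrays its log2 fold change was 4.84 and it was not called (adjusted p = 0.0636). Without the 6 h arrays CYP26A1 was also called at 3 h (SE 0.84, adjusted p = 0.0120), and CYP26B1 was called at 1 h (log2 fold change 3.41, adjusted p = 0.0162) and at 3 h (adjusted p = 0.00303). Over the 16 arrays, after each array set was centred on its own mean, the named genes most like NRIP1 were KCTD6 (Pearson r 0.923), LIMA1 (0.920) and LPIN1 (0.920). CYP26A1 came 8th with 0.903, CYP26B1 16th with 0.885 and DHRS3 288th with 0.680. These values describe shared patterns over arrays that also share their treatment, and they carry no test.

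RXRA, the main RXR of stratified epithelium, was the other member with a difference that some fits called. It read 10.71, 12.27, 12.35 and 11.996 in DMSO replicates 1 to 4, and 10.59, 11.98, 11.81 and 11.97 after 1 h. It read 10.07, 11.39, 11.43 and 11.11 after 3 h, and 9.46, 11.82, 11.59 and 11.56 after 6 h. Replicate 1 was the lowest array in each of the 4 groups, so the groups overlapped over all arrays. Among replicates 2 to 4, the arrays at 1, 3 and 6 h lay below the lowest DMSO array.

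The group means of RXRA, from low to high, were 11.00 ± 0.63 at 3 h, 11.11 ± 1.11 at 6 h, 11.59 ± 0.67 at 1 h and 11.83 ± 0.76 in DMSO (SD, n = 4 each), and neighbours overlapped. At 3 h RXRA was 1.78-fold below DMSO, a log2 fold change of -0.83 (SE 0.53, 95% CI -1.95 to 0.29, limma adjusted p = 0.94). With array set as a block the same log2 fold change had a SE of 0.17 (95% CI -1.19 to -0.47) and passed, with an adjusted p of 0.0167 (2.97% of probes called), and with the 6 h arrays also left out it passed at 0.00347. Within replicates 2 to 4 the log2 fold change was -0.89 and passed (adjusted p = 0.0324, 0.891% of probes called), and within replicate 1 the difference was -0.63. Groups of replicates 2 to 4 that do not overlap with 3 h lower were found at 10.4% of all tested probes. A log2 fold change below that of RXRA at 3 h was found at 174 probes, 1.14% of those tested.

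At 1 h the log2 fold change of RXRA over DMSO was -0.24 (95% CI -1.36 to 0.88) over all arrays, -0.62 without DMSO replicate 1, 0.09 without 1 h replicate 1 and -0.28 within replicates 2 to 4, where 7.14% of probes did not overlap with 1 h lower. At 6 h it was -0.72 (95% CI -1.84 to 0.40) over all arrays, -1.10 without DMSO replicate 1 and -0.17 without 6 h replicate 1, with an adjusted p of 0.155 with array set as a block, where 0% of probes were called. In replicates 2 to 4 the 6 h arrays lay below DMSO, as did 7.2% of probes. The array sets gave unequal values at 6 h, with -1.25 in replicate 1 and -0.55 in replicates 2 to 4. Between 3 h and 1 h the log2 fold change was -0.59 over all arrays, -0.61 in replicates 2 to 4 and -0.52 in replicate 1, and 6.11% of probes had the 3 h arrays of replicates 2 to 4 below those at 1 h. It passed with array set as a block once the 6 h arrays were left out (adjusted p = 0.0419, 1.64% of probes called), an alternative chosen after seeing the data. In the F-test with array set as a block RXRA was the 1 member called (adjusted p = 0.0321, 2.2% of probes called).

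**Figure D3:**
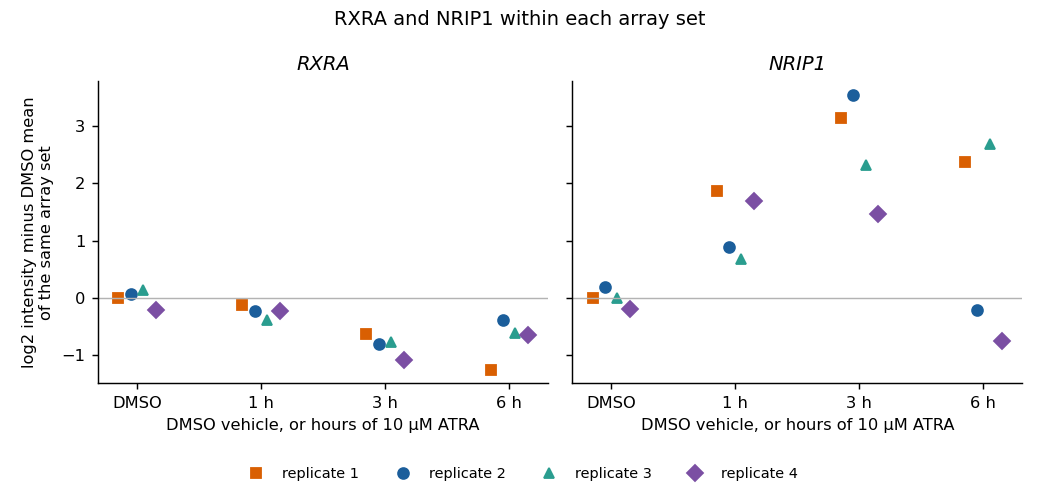
Log2 intensity of RXRA and NRIP1 minus the DMSO mean of the same array set (vertical axis; replicate 1 is one set, replicates 2 to 4 the other) in DMSO and after 1, 3 and 6 h of ATRA, 1 point per array; the 1 DMSO array of the replicate 1 set lies at 0 by construction. RXRA is below 0 in the 4 arrays at 3 h and NRIP1 above 0 in them.

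At RXRA the 6 h replicates 2 and 4, low at NRIP1 and the CYP26 genes, read 11.82 and 11.56, and replicate 3, high at those genes, read 11.59. Within replicates 2 to 4 these 6 h arrays lay above the 3 h arrays by 0.35, as did 2.74% of all tested probes. The difference was -0.62 within replicate 1 and 0.11 over all arrays (95% CI -1.01 to 1.22). The named genes most like RXRA over the 16 arrays, by the same measure, were CBFA2T2 (0.923), ERBB3 (0.905) and MDC1 (0.899).

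RXRB, the other RXR measured, read 9.63, 9.32, 8.90 and 9.20 in DMSO, and 9.29, 8.81, 8.83 and 8.90 after 1 h. It read 9.27, 9.06, 9.34 and 9.05 after 3 h, and 9.63, 9.06, 9.47 and 9.16 after 6 h. The 4 groups overlapped. The log2 fold changes of RXRB over DMSO were -0.30 at 1 h (95% CI -0.70 to 0.10), -0.08 at 3 h (95% CI -0.48 to 0.32) and 0.07 at 6 h (95% CI -0.33 to 0.47). Its SE of 0.19 was the smallest among the 6 tested members, and a log2 fold change of 1 in either direction lay outside its intervals at the 3 times. At 3 h over DMSO the difference was -0.36 within replicate 1 and 0.01 within replicates 2 to 4. Within replicates 2 to 4 the arrays at 3 h lay above those at 1 h, by 0.30, as did 6.42% of all tested probes. RXRB was most like ARMC7 (0.840), RPP21 (0.800) and USF1 (0.793).

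Of the RARs, RARA, the widely expressed receptor, was read by 3 probes, and 1 of them passed the filter. That probe read 7.75, 8.15, 8.21 and 8.47 in DMSO, and 7.93, 8.02, 8.62 and 8.33 after 1 h. It read 7.29, 8.73, 8.32 and 8.70 after 3 h, and 7.45, 7.87, 8.05 and 9.22 after 6 h. The groups overlapped throughout, and the log2 fold changes over DMSO were 0.08 (95% CI -0.69 to 0.86) at 1 h, 0.11 (-0.66 to 0.89) at 3 h and 0.00 (-0.77 to 0.78) at 6 h. The array sets differed in direction at 3 h, with -0.46 within replicate 1 and 0.30 within replicates 2 to 4. At 6 h over DMSO the same differences were -0.30 and 0.10. The other 2 RARA probes lay between 4.27 and 4.88 in the 16 arrays. The genes most like RARA were ISG20 (0.885), TIMM10B (0.870) and GCDH (0.868).

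RARG, the RAR that predominates in stratified epithelium, was dim. It read 6.62, 5.28, 5.66 and 5.46 in DMSO, and 6.82, 5.28, 6.09 and 5.47 after 1 h. It read 6.58, 5.21, 5.39 and 6.05 after 3 h, and 6.55, 5.41, 5.23 and 5.24 after 6 h. Replicate 1 was the highest array in each group, and 6 of the 16 arrays reached 6, of which 4 were the replicate 1 arrays. The log2 fold changes over DMSO were 0.15 at 1 h (95% CI -0.73 to 1.04), 0.05 at 3 h (-0.84 to 0.94) and -0.15 at 6 h (-1.04 to 0.74). With array set as a block the interval at 3 h narrowed to -0.36 to 0.46. RARG passed the filter through 6 arrays, so its low values limit what a fold change can show. It was most like IP6K2 (0.843), IFT172 (0.798) and SNRPD3 (0.774).

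RARB, whose promoter window holds the repeat printed above, did not pass the filter. Its brightest probe read 4.91, 5.44, 5.39 and 5.26 in DMSO, and 5.18, 4.76, 5.06 and 5.43 after 1 h. It read 4.57, 5.63, 4.70 and 5.79 after 3 h, and 6.12, 4.56, 5.60 and 4.49 after 6 h. The 1 array at 6 or more was 6 h replicate 1, and the groups overlapped. At 6 h replicates 1 and 3 lay above the highest DMSO array and replicates 2 and 4 below the lowest. The same replicates were high and low at NRIP1, so the 6 h mean of RARB averages over a split. The other 2 RARB probes lay between 4.38 and 4.71 and between 4.66 and 5.45, without that split. In the fit without the filter the log2 intensity of its brightest probe differed from DMSO by -0.14 at 1 h (95% CI -0.91 to 0.63), by -0.07 at 3 h (-0.84 to 0.70) and by -0.05 at 6 h (-0.82 to 0.71). These values lie near the floor of the table, 4.235, which limits how far a lower level could show.

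NCOA1, the coactivator SRC-1, was read by 3 probes, of which 1 passed. That probe read 6.76, 7.87, 7.82 and 7.69 in DMSO, and 7.13, 7.80, 7.67 and 8.39 after 1 h. It read 6.86, 7.74, 7.40 and 7.17 after 3 h, and 6.95, 7.89, 7.46 and 7.27 after 6 h. The groups overlapped, and replicate 1 was lowest in each. The log2 fold changes over DMSO were 0.21 at 1 h (95% CI -0.44 to 0.86), -0.24 at 3 h (-0.90 to 0.41) and -0.14 at 6 h (-0.80 to 0.51). The array sets differed in direction at 3 h, with 0.09 within replicate 1 and -0.36 within replicates 2 to 4. At 6 h over DMSO the same differences were 0.19 and -0.26. The other 2 probes lay between 4.33 and 5.20, and the genes most like NCOA1 were RETREG1 (0.946), TMEM168 (0.923) and MYCBP2 (0.921).

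**Figure D4:**
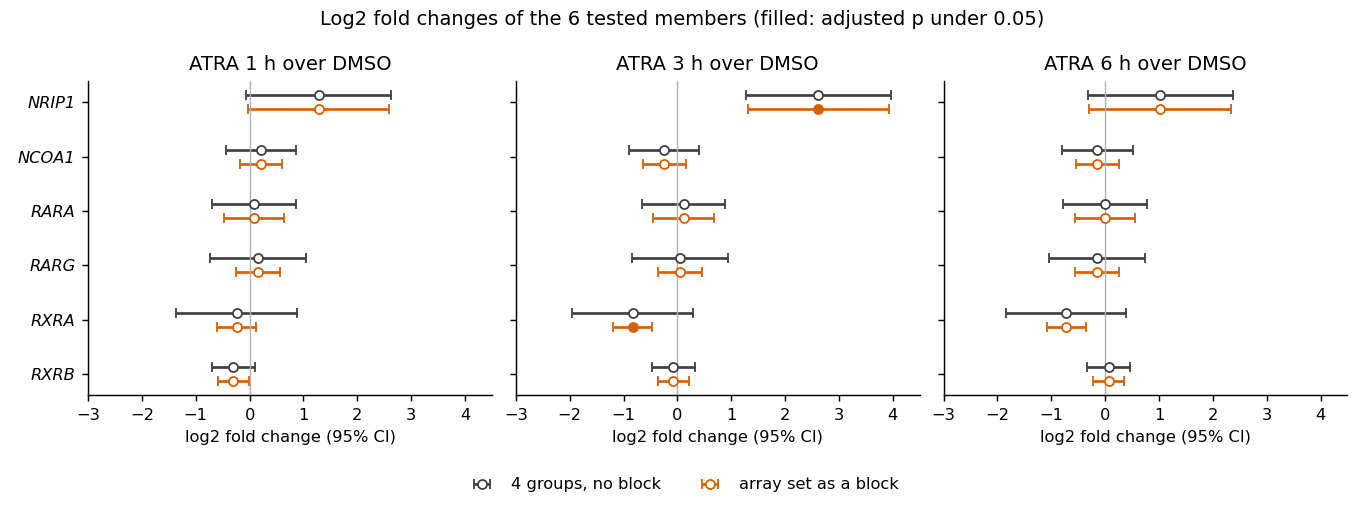
Log2 fold changes over DMSO at 1, 3 and 6 h (horizontal axes) with 95% confidence intervals for the 6 tested members (rows), from the fit of the 4 groups (grey) and the fit with array set as a block (orange); filled points have an adjusted p under 0.05. At 3 h NRIP1 (2.62) and RXRA (-0.83) are filled in the block fit, and the intervals of RARA, RARG and NCOA1 span 0 at each time.

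The array sets differed at RXRA, RARG, RARA and NCOA1 by more than the group means did, whereas at NRIP1 the groups differed more than the sets. Replicate 1 minus the mean of replicates 2 to 4 was -1.57 for RXRA, 1.16 for RARG, -0.78 for RARA, -0.75 for NCOA1, 0.47 for NRIP1 and 0.36 for RXRB. For RXRA, RARG and NCOA1 no replicate 1 array lay within the range of the other 12. In RNA of whole cultures, fewer cells of a kind and less RNA per cell cannot be told apart.

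Over the 6 tested members the median log2 fold change was 0.12 at 1 h, -0.01 at 3 h and -0.07 at 6 h over DMSO, and over the 15271 tested probes it was -0.03, -0.03 and -0.01. The median size of the log2 fold change at 3 h was 0.18 in the 6 members and 0.17 over all tested probes.

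Related genes were taken from lists chosen with earlier results of these data known. Of 14 other nuclear receptors, most of them partners of RXRs, 11 had a named probe and 7 were tested. At 1 h 2 of the 7 rose, and at 3 h over 1 h the same 2 fell. Of all tested probes 0.544% were called at 1 h over DMSO and 0.19% at 3 h over 1 h. NR4A1, an orphan receptor that can pair with RXRs, read 7.88, 7.84, 8.74 and 8.63 at 1 h, against 4.45, 4.47, 4.36 and 4.44 in DMSO, where it was below 6 in the 4 arrays. It was at least 4.83-fold higher at 1 h, a bound set against a log2 value of 6 (limma adjusted p = 2.73e-07).

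NR4A2, its close relative, rose with a log2 fold change of 2.03 at 1 h over DMSO (SE 0.20, adjusted p = 7.44e-05) and fell by 1.79 at 3 h over 1 h (adjusted p = 0.000889). At 3 h over DMSO 0 of the 7 were called by limma, with 1 at an unadjusted p under 0.05. PPARD, a fatty acid receptor that pairs with RXRs, was 0.61 higher at 3 h (adjusted p = 0.577). It rose with array set as a block (adjusted p = 0.0296, 2.97% of probes called).

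Of 11 other genes of corepressor complexes, among them the histone deacetylase HDAC3, 10 were tested. Over all arrays without a block, none was called by limma in the 5 comparisons, and 0 had an unadjusted p under 0.05 in any of them. With array set as a block none was called by limma either (lowest adjusted p = 0.172, at 3 h over DMSO). In that fit 2 had an unadjusted p under 0.05 at 3 h over DMSO and 3 at 6 h over DMSO. The share of all tested probes under that threshold was not counted for the block fit, so these counts have no background. The median log2 fold change of the 10 was -0.19 at 3 h over DMSO, beside -0.03 over all tested probes. Of 14 other genes of coactivator complexes 12 were tested, and 1 rose at 1 h (0.544% of all tested probes called). This was NCOA7, a nuclear receptor coactivator outside the SRC family, which read 11.51, 11.38, 11.85 and 12.50 at 1 h, against 10.10, 9.38, 9.73 and 10.22 in DMSO. The groups did not overlap, and the log2 fold change was 1.96 (SE 0.30, limma adjusted p = 0.00386). At 3 h NCOA7 was 0.93 above DMSO (SE 0.30, adjusted p = 0.252), and the median of the 12 was -0.17.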

How the data were processed

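Illumina bead arrays, 16 in all, read biotin-labelled cRNA from ME180 cells, per the labels. The authors deposited 1 normalized log2 value per probe and array, and the base was read as 2 from the range of 4.235 to 14.73. As a tool, limma is named without a version in the submitters' processing notes. Background correction is not given in the sources used here. A second deposited table was used for its row order only, since its 32 value and detection columns match no sample label. Against that order the replicate 1 arrays were displaced by 1 row from row 10569 of 47230, where r over probes with the other arrays was 0.979 before and 0.325 after, and 0.979 once moved.

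Probes were named from GEO's platform annotation (30113 with 1 symbol, 8 with several, 17109 not listed). A gene was read through its passing probe of highest mean, and 15271 probes passed the filter. Groups were compared in limma 3.58.1 (R 4.3.3; lmFit and eBayes, two-sided, 12 residual degrees of freedom, Benjamini-Hochberg over the tested probes), and a gene was called at an adjusted p under 0.05. The number of arrays limits the precision. The fit was tested on simulated data, for 3 h over DMSO. It called 2% of probes given a log2 change of 0.5 and 32% of those given 1. At changes of 2 and 3 it called 86% and 92%, and among unchanged probes 0.0199%. A 2-fold change can therefore go uncalled. Alternatives were array set as a block, replicate 1 left out, rows as deposited, the replicate number as a block, each array left out, other filters, cyclic loess, a variance trend, 1 probe per gene and 2 groups alone. In their deviations from the group means same-numbered arrays correlated at -0.13 to 0.90 (24 pairs, median 0.40, against -0.23 for different numbers). Among replicates 2 to 4 the medians were -0.04 and 0.0032. Not every pair exceeded 0.1, so the numbers were not taken to pair arrays. The genes named were the 9 members, list genes called in a comparison, and the 3 genes most like each member. Members and lists were chosen with earlier results of these data known. Probe and protein sequences were not used here.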

Additional observations from a re-analysis of the deposited data

Results flagged for a closer look

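Of 28 groups of 4 arrays over the 7 genes with a named probe, 4 held an array whose gap to its nearest neighbour, as a share of the group's range, was above Dixon's 95% limit, which chance passes in about 1 in 20 groups. RARG stood at 6.55 in ATRA 6 h replicate 1, above the other 3 arrays of that group. RXRA stood at 10.59 in ATRA 1 h replicate 1 and at 9.46 in ATRA 6 h replicate 1, each below the other 3. NCOA1 stood at 6.76 in DMSO replicate 1, below the other 3. Each of the 4 is an array of the replicate 1 set.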

How the results depend on the processing

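At 3 h over DMSO limma called 0 of 6 members over all arrays. It called 2 (NRIP1 and RXRA) with array set as a block, 1 (RXRA) without the replicate 1 arrays, 1 (NRIP1) with the 2 groups alone, and 0 to 1 when each array was left out, the 1 being NRIP1 without 6 h replicate 3 or 6 h replicate 4. With the alternatives chosen after seeing the data it called 1 (NRIP1) without the 6 h arrays and 2 when array set was also a block, where 1 (RXRA) was called at 3 h over 1 h. In the F-test 1 (RXRA) was called with array set as a block. The replicate number as a block gave 2 at 3 h over DMSO (NRIP1 adjusted p = 0.0398, RXRA 0.0241; 2.74% of all probes called) and 1 in the F-test (RXRA, 0.0493; 1.96%), and changed no other call of a member. The other filters, cyclic loess, the variance trend and 1 probe per gene left 0 members called. The rows as deposited also left 0 called, but each member probe lies past row 10569, where the displacement begins. As deposited, the replicate 1 arrays hold values of other rows there, so that fit says nothing of the members. The log2 fold change of RXRA at 3 h over DMSO was -1.20 without DMSO replicate 1 and -0.52 without 3 h replicate 1. Each array left out there is of the replicate 1 set, which read lower at RXRA (replicate 1 minus the others -1.57). Why that set reads lower was not tested. With the rows as deposited, the RXRB row gave -0.24 at 6 h over DMSO and -0.10 at 6 h over 3 h. As deposited, that row holds in the replicate 1 arrays the values of the row above it, which is RXRA. These values are therefore not fold changes of RXRB.

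Over all probes the calls at 3 h over DMSO were 91, against 453 with array set as a block, 419 with the replicate block, 35 with no filter, 0 as deposited, 157 without the 6 h arrays and 680 when array set was also a block; leaving out 1 of DMSO replicates 1 to 3 or 3 h replicates 2 or 4 gave 18 to 48. At 1 h over DMSO the calls were 83, against 139, 138 and 16 with array set as a block, the replicate block and the rows as deposited, 54 without DMSO replicate 2, 52 without 1 h replicate 4 and 167 without the 6 h arrays with array set as a block. At 3 h over 1 h they were 29, against 100, 79 and 3 for the same first 3 settings, 9 with the 2 groups alone, 17 without 1 h replicate 4, 18 without 3 h replicate 4, and 46 and 251 without the 6 h arrays, the higher with array set as a block. In the F-test they were 105, against 336, 300 and 17 for those 3 settings, 63 with no filter and 55 to 67 on leaving out DMSO replicates 2 or 3, 1 h replicates 3 or 4, or 3 h replicate 4. At 6 h over 3 h the 0 became 1 without the replicate 1 arrays and 2 without 3 h replicate 3. Signal limits RARB and RARG, which were near or under 6.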
